A study of Homo sapiens with 9 samples.

Results

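The axonemal and motile cilium genes are the protein-coding genes that encode the axonemal dynein chains, the factors that assemble them, the radial spokes, the central apparatus and the other parts of a beating cilium, together with regulators that switch this gene programme on. They were chosen by gene symbol and biotype in the deposited annotation, as the DNAH, DNAI, DNAAF, CFAP, RSPH and TEKT genes plus SPAG6, SPAG16, SPAG17, HYDIN, FOXJ1, RFX2, RFX3, MCIDAS and CCNO, and no measured value entered beyond a row in one of the count tables. The rule found 72 genes among 31589 genes of all kinds and 17226 protein-coding genes. The gene group itself was picked with results of these data in view, so the shares of its members that changed are given as descriptions.

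The study asked how valproic acid (VPA), an anti-seizure drug that also inhibits histone deacetylases, affects human spinal cord organoids (SCOs), and whether Rapamycin, an inhibitor of the mTOR kinase, changes that effect. SCOs are aggregates of neural tube tissue grown from induced pluripotent stem cells, here of the WTC line, which the labels give as WT in all groups. According to the study's methods, the RNA sequencing used SCOs of several single-cell clones of a SOX10 reporter built in WTC, some of which carry small insertions or deletions on the other SOX10 allele, with several organoids of a clone pooled. The labels do not tie a library to a clone. Bulk poly(A) RNA of whole SCOs was sequenced after 96 h of treatment in 3 groups of 3 libraries each. Vehicle SCOs received FGF (fibroblast growth factor) without a drug, VPA SCOs received VPA, and VPA + Rapamycin SCOs, called both drugs in comparisons with vehicle, received the 2 together, with FGF in the medium of all groups per the study's methods.

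A motile cilium is built on an axoneme, a ring of doublet microtubules around a central pair. Outer and inner dynein arms on the doublets pull neighbouring doublets past each other, and radial spokes and the central apparatus control that movement. Most other cells, neural progenitors among them, bear a single primary cilium that lacks dynein arms and does not beat. In the central nervous system motile cilia are best known from ependymal cells and choroid plexus epithelium, and FOXJ1, the main activator of motile cilium genes, also marks the floor plate of the embryonic spinal cord. RFX factors bind a DNA element called the X-box, a pair of inverted half-sites, in the promoters of many ciliary genes.

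Depth was even, with 15290325 to 17417368 counts per library, of which 11735 to 13323 fell on the 72 genes. The limit that a count of 0 allows, set at 3 counts, lay between 0.170 and 0.198 CPM, the count scaled to a fixed library size with edgeR's TMM factors, and it covers counting error only. Between 56 and 63 of the 72 genes had more than 3 counts in a given library. Spinal cord progenitor markers were present in every library, at a summed 1537 to 1819 CPM over 9 genes, while 3 forebrain markers summed to at most 2.27 CPM. Vehicle replicate 3 and VPA + Rapamycin replicate 3 stood apart in floor plate markers: SHH had 176 and 166 counts there against 16 to 38 in the other 7 libraries, and FOXA2 had 52 and 85 against 0 to 16. Vehicle replicate 3 also stood apart in roof plate and neural crest markers, with 225 counts of MSX2 against 0 to 33 and 307 of TFAP2B against 0 to 8 in the other libraries. Counts with and without these libraries are given beside the comparisons. The labels do not say whether the replicates were separate cultures, while the study's figure legend gives the columns of a group as its 3 clones. The p-values therefore measure the spread between these libraries, which may include differences between clones. In bulk RNA, fewer cells of a type and less RNA per cell cannot be told apart.

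Promoter sequence was at hand from RefSeq (GRCh38.p14) for 58 of the 72 genes, as windows of 300 bases from 250 before to 50 after the start site. Both strands were searched for the X-box, for its half-site GTTGCC, which lies inside many X-boxes, and for the forkhead motif TGTTTAC bound by factors of the FOXJ1 family. An X-box was found in 12 of the 58 windows (20.7%) and in 1.3% of 27303 promoters of the same length. The half-site was found in 28 of 58 (48.3%) against 12.2% of all promoters, and the forkhead motif in 3 of 58 (5.17%) against 3.41%. Member promoters were also richer in G and C, with a median of 62.5% against 58.3%. A match describes these letters and is not a binding site. The 250 bases before the start are shown for 4 genes that were raised with VPA and for 2 inner arm dyneins that were lowered, since half-sites occurred on both sides, with matches in capitals.
SPAG6 (chr10:22345246-22345495, + strand): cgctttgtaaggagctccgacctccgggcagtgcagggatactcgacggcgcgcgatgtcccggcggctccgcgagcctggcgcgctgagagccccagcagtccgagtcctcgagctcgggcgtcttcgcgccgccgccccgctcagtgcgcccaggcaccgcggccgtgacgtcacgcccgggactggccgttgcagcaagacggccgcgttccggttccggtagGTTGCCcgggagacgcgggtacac
CFAP74 (chr1:2003787-2004036, - strand): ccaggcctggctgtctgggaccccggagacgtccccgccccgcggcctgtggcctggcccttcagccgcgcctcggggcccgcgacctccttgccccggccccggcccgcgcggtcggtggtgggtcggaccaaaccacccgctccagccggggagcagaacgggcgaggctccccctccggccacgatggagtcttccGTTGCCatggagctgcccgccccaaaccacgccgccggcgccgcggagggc
CCNO (chr5:55233609-55233858, - strand): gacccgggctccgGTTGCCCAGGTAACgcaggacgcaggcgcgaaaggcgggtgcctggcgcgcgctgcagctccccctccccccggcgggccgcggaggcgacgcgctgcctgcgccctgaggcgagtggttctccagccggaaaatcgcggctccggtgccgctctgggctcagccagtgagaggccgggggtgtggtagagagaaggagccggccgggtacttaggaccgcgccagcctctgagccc
RSPH4A (chr6:116616229-116616478, + strand): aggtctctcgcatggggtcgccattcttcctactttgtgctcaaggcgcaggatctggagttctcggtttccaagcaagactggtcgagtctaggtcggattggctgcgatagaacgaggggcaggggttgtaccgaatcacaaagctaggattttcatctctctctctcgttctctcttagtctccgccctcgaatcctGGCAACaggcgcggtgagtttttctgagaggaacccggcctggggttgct
DNAH1 (chr3:52316069-52316318, + strand): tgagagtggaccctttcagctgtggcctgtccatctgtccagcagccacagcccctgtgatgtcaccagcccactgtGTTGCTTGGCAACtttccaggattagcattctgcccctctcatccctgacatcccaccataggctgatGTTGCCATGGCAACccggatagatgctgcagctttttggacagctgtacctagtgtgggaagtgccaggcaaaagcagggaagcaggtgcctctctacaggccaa
DNAH10 (chr12:123762051-123762300, + strand): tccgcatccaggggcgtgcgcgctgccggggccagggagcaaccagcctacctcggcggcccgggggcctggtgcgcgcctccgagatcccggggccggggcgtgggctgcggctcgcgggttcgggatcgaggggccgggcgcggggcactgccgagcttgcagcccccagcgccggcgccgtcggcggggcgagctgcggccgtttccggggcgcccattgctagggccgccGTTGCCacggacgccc
Counted back from the start site, SPAG6 has a half-site at -24 to -19, CFAP74 at -51 to -46, RSPH4A, on the opposite strand, at -50 to -45, and DNAH10 at -16 to -11. CCNO has an X-box at -237 to -224. DNAH1 has a pair of X-boxes, at -173 to -161 and at -105 to -92. Of the genes raised with VPA that had a promoter sequence, 5 of 11 held a half-site, and of those lowered 4 of 6.

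In vehicle SCOs the 72 genes spanned a wide range of levels, compared here as CPM per kb of gene length. The median was 0.29 CPM per kb, with 20 genes above 1 and 21 below 0.1. The highest was CFAP20, a doublet microtubule inner protein found in primary as well as motile cilia, at 18.3 ± 0.71 CPM per kb (SD, n = 3). CFAP36, whose protein binds the small GTPase ARL3, followed at 17.1 ± 2.5, and RFX3, a ciliary transcription factor, at 15.1 ± 3.2. These levels lay within each other's spread. CFAP97 stood at 12.2 ± 1.3 CPM per kb and DNAAF2, a cytoplasmic factor that helps fold dynein heavy chains, at 11.5 ± 1.7, again within their spread. TEKT2, a tektin that runs along the doublet, came next at 7.90 ± 0.45. Of the 13 dynein heavy chains, 8 lay below that median. They ran from DNAH8 at 0.0084 CPM per kb, through DNAH5 and DNAH9, chains of the outer arm in airway cilia, at 0.047 and 0.067, to DNAH1 at 0.99 and DNAH14 at 1.17. In all, 10 of the 72 genes had 10 counts or fewer in every library.

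Against vehicle, VPA raised SPAG6, CFAP74 and CFAP46 of the central apparatus, CFAP43 and CFAP44 of the inner arm tether, DNAAF3 and DNAAF5 of dynein assembly, and DNAH7, RSPH4A, CFAP52, CFAP77 and CCNO, and lowered DNAH1, DNAH2, DNAH10, TEKT2, TEKT3, RFX3 and CFAP97. Of the 72 genes, 54 had enough counts to be tested with edgeR's quasi-likelihood test, in which a gene counts as changed when its p, adjusted over every gene in the fit, does not exceed 0.05. VPA raised 12 of the 54 (22.2%), where 16.4% of all 17360 genes tested were raised, and lowered 7 (13%), where 15.7% of all genes were lowered. Of the 14173 protein-coding genes tested, 18.9% were raised and 15.7% lowered. The median log2 fold change of the 54 was 0.14, against -0.0030 over all genes and 0.029 over protein-coding genes. Without vehicle replicate 3, 14 were raised and 6 lowered. The filter on low counts can let a gene through by the group in which it is high, which holds for the raised CFAP52, CCNO, CFAP74 and CFAP77 and, through vehicle, for the lowered TEKT3. With at least 10 counts required in every library, 8 of 45 were raised (17.8%, against 16.5% of all genes) and 6 lowered (13.3% against 17%). The roles below are described by their counts and were not tested as groups.

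The largest change by p was that of SPAG6, a protein of the central apparatus needed for ciliary beating. Its counts were 75, 92 and 118 in vehicle, 804, 763 and 765 in VPA, and 466, 513 and 531 with both drugs. The groups did not overlap, and the VPA + Rapamycin libraries lay between the other groups. The level was 5.93 ± 1.4 CPM in vehicle, 46.2 ± 2.4 with VPA and 30.4 ± 2.9 with both drugs (SD, n = 3). VPA raised SPAG6 7.73-fold (log2 2.95, SE 0.18, adjusted p = 3.7e-06), and with Rapamycin added it was still raised 5.08-fold over vehicle (log2 2.35, SE 0.20, adjusted p = 0.000124). Between the drug groups it was lower with Rapamycin by a log2 change of -0.60 (SE 0.099, adjusted p = 0.00118).

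CFAP74, another central apparatus protein, was close to the detection limit in vehicle, with 5, 6 and 5 counts, and had 37, 55 and 41 in VPA and 20, 37 and 35 with both drugs. All treated libraries exceeded all vehicle libraries. The log2 fold change was 2.95 with VPA (SE 0.43, adjusted p = 0.000569) and 2.44 with both drugs (SE 0.48, adjusted p = 0.00659). CFAP46, of the same complex, had 105, 88 and 95 counts in vehicle, 139, 152 and 170 in VPA, and 181, 208 and 158 with both drugs. It was raised by log2 0.60 with VPA (adjusted p = 0.0305) and 0.87 with both drugs (adjusted p = 0.00967). The VPA call on CFAP46 was lost without vehicle replicate 2, without any single VPA library, with no filter on low counts and with a replicate block. CFAP70 had 55, 52 and 76 counts in vehicle, 57, 53 and 69 in VPA, and 96, 113 and 120 with both drugs, so only the VPA + Rapamycin libraries stood higher. Across the central apparatus, VPA raised 3 of 13 tested genes (23.1%, beside 16.4% of all genes) and lowered none, with a median log2 fold change of 0.43. The 10 others included SPAG16 at log2 0.14, SPAG17 at 0.23 and HYDIN, whose near-identical copy HYDIN2 makes its counts uncertain, at 0.44, none past the threshold.

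Inner arm dyneins moved in both directions. DNAH7, a single-headed inner arm heavy chain, had 52, 37 and 52 counts in vehicle, 126, 118 and 159 in VPA, and 121, 143 and 159 with both drugs. Its log2 fold change was 1.43 with VPA (SE 0.23, adjusted p = 0.00108) and 1.53 with both drugs (SE 0.24, adjusted p = 0.00210), with no overlap between vehicle and either drug group. DNAH1, also a single-headed heavy chain, went the other way, with 234, 245 and 180 counts in vehicle, 114, 81 and 125 in VPA, and 128, 172 and 140 with both drugs. It fell by 1.13 on the log2 scale with VPA (SE 0.21, adjusted p = 0.00235) and by 0.64 with both drugs (SE 0.19, adjusted p = 0.0403). The vehicle libraries were the highest in each case.
DNAH10, a heavy chain of the inner arm that carries a pair of heads, had 85, 101 and 108 counts in vehicle against 52, 50 and 29 in VPA and 69, 43 and 77 with both drugs. It fell by 1.24 with VPA (SE 0.30, adjusted p = 0.00883). Its count is uncertain, because 2 genes overlap it on the opposite strand and the counting is not stated to use strand. CCDC92 had 1275% of its count and a log2 fold change of 0.13 in the same comparison (adjusted p = 0.388), and DNAH10OS had 239% and fell by 1.30 (adjusted p = 0.000508). DNAH2, its partner chain in that arm, had 41, 40 and 46 counts in vehicle, 18, 16 and 30 in VPA, and 17, 9 and 25 with both drugs. The log2 fold change was -1.07 with VPA (adjusted p = 0.0387) and -1.36 with both drugs (adjusted p = 0.0429), and the VPA call was lost without vehicle replicate 2 or 3, without VPA replicate 1 or 2, in DESeq2, in the fit of all 9 libraries and with a replicate block. DNAH6, the remaining inner arm chain tested, had 80, 78 and 107 counts in vehicle and 163, 118 and 132 in VPA, at log2 0.56 and an adjusted p of 0.0786.

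None of the 5 outer arm dynein genes tested was called in any comparison by edgeR, and none had an unadjusted p under 0.05. Of all genes, 16.4% were raised and 15.7% lowered with VPA, and 9.81% and 9.22% with both drugs against vehicle. With Rapamycin added to VPA the shares were 3.01% and 3.73%. At these shares, 0 calls among 5 genes do not set the outer arm apart. Most of these counts are uncertain through overlapping genes on the opposite strand. Such genes had 3247% of the count of DNAH11, 1140% of DNAI1, 800% of DNAH17 and 15.9% of DNAH9. DESeq2 called 0 of the 6, 3 and 5 that it tested in the VPA, the Rapamycin and the VPA + Rapamycin against vehicle comparisons. With VPA their log2 fold changes ran from -0.21 for DNAH9 to 0.25 for DNAI1, an intermediate chain with 76, 91 and 57 counts in vehicle and 84, 95 and 104 in VPA. DNAH5 had few counts, with 12, 6 and 20 counts in vehicle and 26, 10 and 6 in VPA, and its log2 fold change of 0.08 had an SE of 0.63. DNAH14, a heavy chain not assigned to an arm, had 322, 353 and 436 counts in vehicle against 286, 295 and 304 in VPA, all lower, at log2 -0.41 and an adjusted p of 0.0658.

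Among the factors that assemble dynein arms in the cytoplasm, 2 of 7 tested (28.6%, beside 16.4% of all genes) were raised with VPA. DNAAF3 had 103, 59 and 73 counts in vehicle, 236, 181 and 273 in VPA, and 204, 277 and 190 with both drugs. Vehicle did not overlap either drug group, and the drug groups overlapped each other. The log2 fold change was 1.48 with VPA (SE 0.22, adjusted p = 0.000693) and 1.46 with both drugs (SE 0.22, adjusted p = 0.00211). DNAAF5, a far more abundant gene, had 1038, 899 and 634 counts in vehicle, 1379, 1356 and 1325 in VPA, and 1236, 1149 and 1006 with both drugs. It was raised by log2 0.58 with VPA (adjusted p = 0.0149), a call lost without VPA replicate 1 or 2, and stood at 0.34 with both drugs (adjusted p = 0.161). DNAAF2 and CFAP298, assembly factors with 251 to 639 counts per library, had log2 fold changes of 0.02 and -0.04 with VPA, neither past the threshold.

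CFAP44 and CFAP43 form the tether that anchors an inner arm dynein head to the doublet, and both were raised. They were 2 of 4 genes tested as inner arm tethers or adaptors (50%, beside 16.4% of all genes). CFAP100, at log2 0.38 with VPA, and CFAP57, at 0.10, were not called. The CFAP57 count is uncertain through EBNA1BP2 on the opposite strand, with 1187% of it. CFAP44 had 94, 106 and 99 counts in vehicle, 221, 241 and 286 in VPA, and 297, 342 and 351 with both drugs. No group overlapped another. It was raised by log2 1.24 with VPA (SE 0.18, adjusted p = 0.000576) and 1.67 with both drugs (SE 0.17, adjusted p = 0.000287). Its value is uncertain because BOC, which overlaps it on the opposite strand, had 2209% of its count, though BOC itself stood at log2 -0.29 with VPA (adjusted p = 0.144). CFAP43 had 49, 35 and 75 counts in vehicle against 98, 140 and 90 in VPA and 100, 111 and 143 with both drugs. It was raised by log2 0.98 with VPA (adjusted p = 0.0337), a call lost without vehicle replicate 1 or 2 or VPA replicate 1 or 2, and by 1.11 with both drugs (adjusted p = 0.0261).

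Of 6 radial spoke genes tested, VPA raised 1 (16.7%, beside 16.4% of all genes), RSPH4A, a protein of the spoke head. It had 50, 86 and 56 counts in vehicle, 151, 130 and 179 in VPA, and 178, 165 and 158 with both drugs, and vehicle lay below both. The log2 fold change was 1.16 with VPA (SE 0.26, adjusted p = 0.00678) and 1.31 with both drugs (SE 0.25, adjusted p = 0.00634). RSPH1, also of the spoke head, had 11, 9 and 7 counts in vehicle and 24, 30 and 15 in VPA, at log2 1.28 but an adjusted p of 0.0596. RSPH3 and RSPH9 had log2 fold changes of -0.26 and -0.04, not past the threshold. RSPH10B and RSPH10B2 are near-identical copies whose reads cannot be assigned with certainty, and neither passed 9 counts in a library.

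The proteins inside the doublet microtubules and the tektins split evenly, with 2 raised and 2 lowered of 6 tested with VPA. Each is 33.3%, beside 16.4% of all genes raised and 15.7% lowered. TEKT2 had 281, 227 and 247 counts in vehicle, 141, 134 and 109 in VPA, and 120, 155 and 126 with both drugs. Both drug groups lay below vehicle and overlapped each other. It fell by 1.05 on the log2 scale with VPA (SE 0.18, adjusted p = 0.00141) and by 0.97 with both drugs (SE 0.17, adjusted p = 0.00379). TEKT3 had 25, 32 and 12 counts in vehicle, 5, 6 and 4 in VPA, and 16, 12 and 3 with both drugs, and fell by 2.25 with VPA (SE 0.55, adjusted p = 0.00997), a call lost without vehicle replicate 2 or VPA replicate 3. CFAP77 rose from 8, 5 and 5 counts in vehicle to 42, 39 and 38 in VPA, at log2 2.63 (SE 0.42, adjusted p = 0.000933), and had 18, 12 and 27 with both drugs, where log2 1.60 missed the threshold (adjusted p = 0.0581).
CFAP52 had 0, 2 and 2 counts in vehicle and 24, 10 and 16 in VPA. The ratio of summed counts was 12.2, with an exact 95% interval from 4.48 to 46.5 that covers counting error only, and the fitted log2 fold change was 3.44 (SE 0.78, adjusted p = 0.00658). In VPA + Rapamycin it had 11, 8 and 12 counts and was not tested against vehicle. TEKT4 had no count in vehicle and 1, 0 and 15 with both drugs, and TEKT1 had 8, 0 and 0 in vehicle and 0, 0 and 14 with both drugs. VPA + Rapamycin replicate 3, with the most counts of both genes, was high in floor plate markers, while vehicle replicate 3, the other library high in them, had 0 counts of either.

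**Figure D1:**
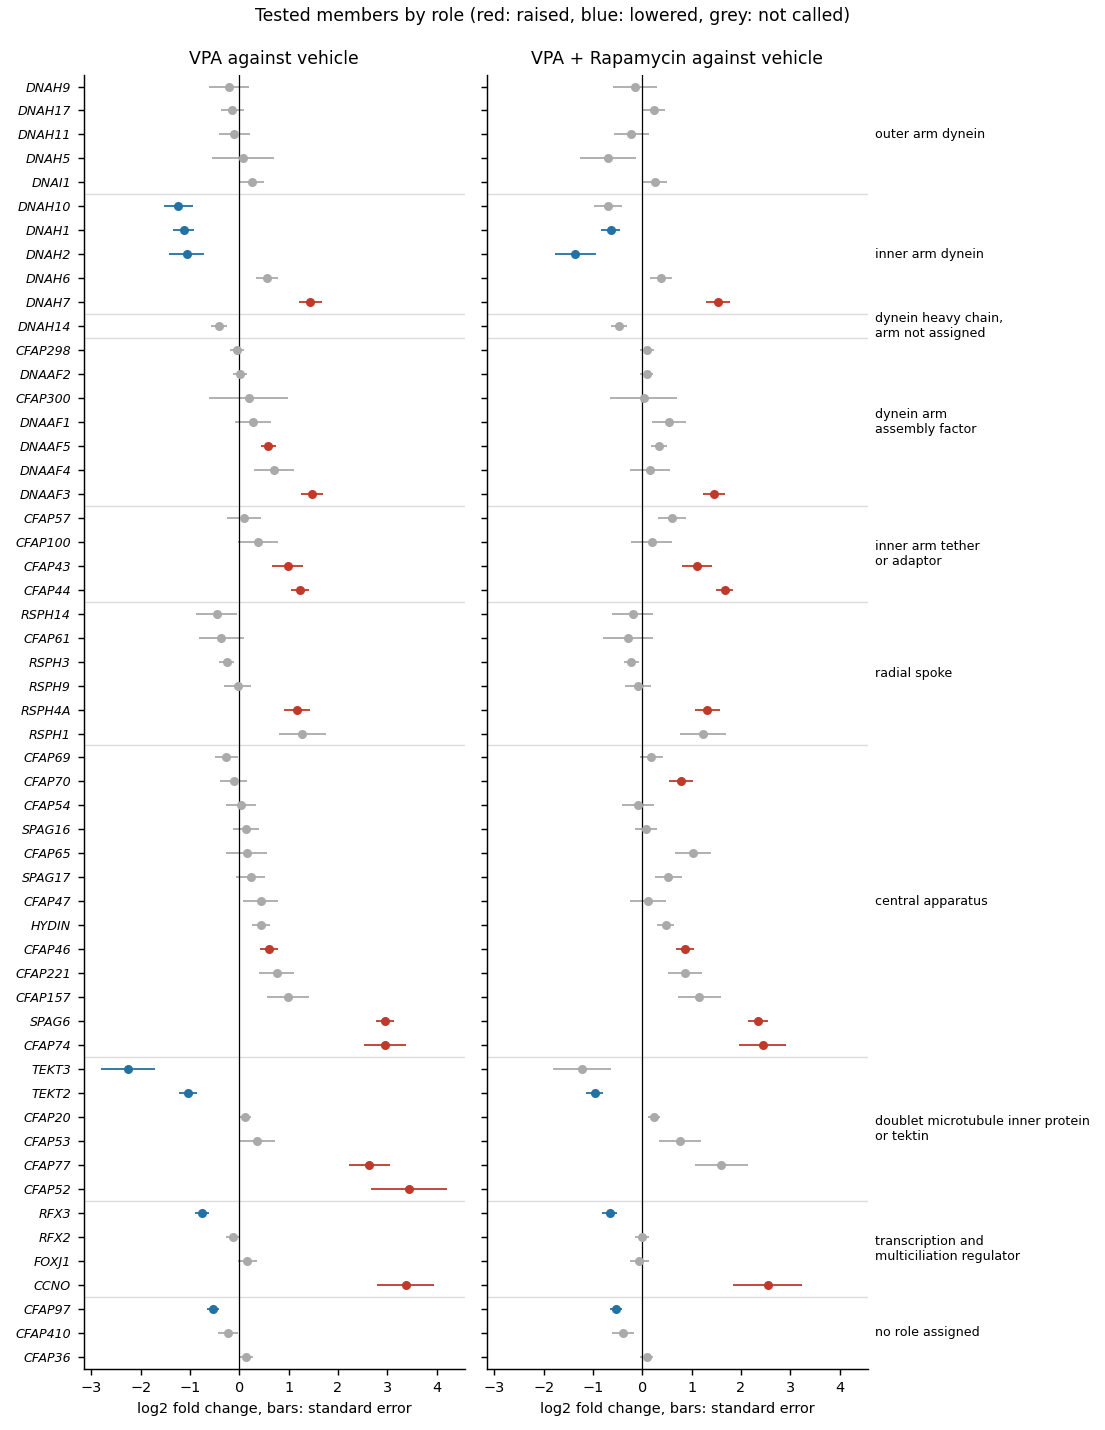
Log2 fold change (points) with its standard error (bars) of every tested gene, grouped by role, for VPA against vehicle (left) and VPA + Rapamycin against vehicle (right), with raised genes in red, lowered genes in blue and genes past neither threshold in grey. Outer arm dyneins run from -0.21 to 0.25 with VPA and from -0.70 to 0.25 with VPA + Rapamycin. Inner arm dyneins spread from -1.24 to 1.43 with VPA, and SPAG6, CFAP74 and CCNO lie at 2.95, 2.95 and 3.37.

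The regulators did not move as a group. FOXJ1 had 144, 116 and 129 counts in vehicle, 163, 127 and 170 in VPA, and 111, 150 and 125 with both drugs, and all groups overlapped. Its log2 fold change was 0.16 with VPA (SE 0.19, adjusted p = 0.534) and -0.07 with both drugs (SE 0.19, adjusted p = 0.844), with RNF157-AS1 on the opposite strand at 38.1% of its count. RFX2 had 1093, 882 and 721 counts in vehicle against 906, 801 and 894 in VPA, at log2 -0.13 and an adjusted p of 0.518. RFX3 had 2303, 2492 and 3332 counts in vehicle, 1672, 1681 and 1716 in VPA, and 1728, 1759 and 1871 with both drugs. Every treated library was below every vehicle library, and RFX3 fell by 0.76 with VPA (SE 0.14, adjusted p = 0.00227) and by 0.66 with both drugs (SE 0.15, adjusted p = 0.0130).
MCIDAS, which starts multiciliated cell differentiation, had 0 to 6 counts in all 9 libraries and was not tested. CCNO, a cyclin-like protein that acts in centriole amplification in multiciliated cells, had 2, 7 and 1 counts in vehicle, 32, 37 and 45 in VPA, and 32, 12 and 19 with both drugs. All treated libraries exceeded vehicle, with a ratio of summed counts of 11.1 (exact 95% interval 5.84 to 23.8, counting error only) for VPA and 6.31 (3.22 to 13.8) for both drugs. The fitted log2 fold change was 3.37 with VPA (SE 0.58, adjusted p = 0.00157) and 2.54 with both drugs (SE 0.70, adjusted p = 0.0284), and the latter call was lost without replicate 1 or 3 of either group. CFAP97, with no role assigned here, had 1318, 1352 and 1554 counts in vehicle, 1058, 1034 and 977 in VPA, and 1033, 933 and 1068 with both drugs. It fell by 0.54 and 0.53 (adjusted p = 0.00577 and 0.0155), while SNX25 on the opposite strand, at 54.9% of its count, fell by 0.43 with VPA.

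**Figure D2:**
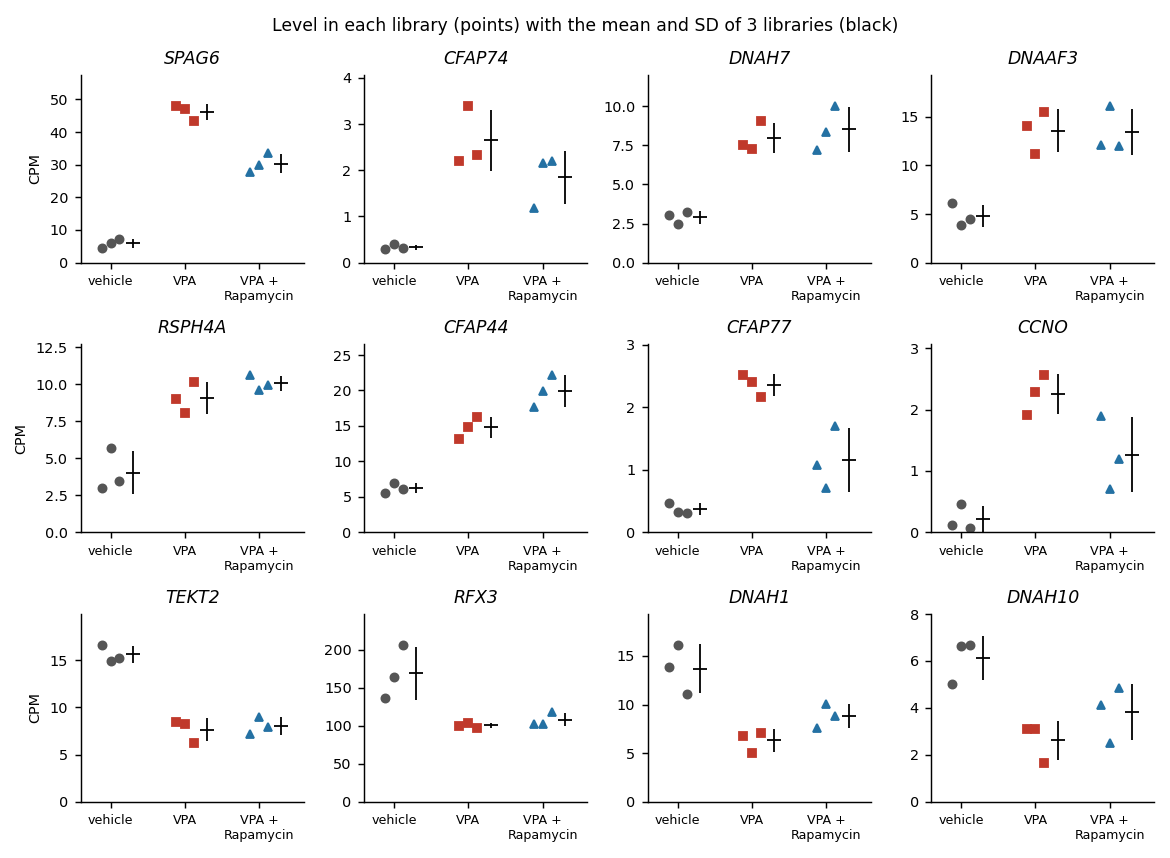
Level of 12 genes in each library, in CPM (each axis starts at 0), with the mean and SD of 3 libraries in black, for vehicle (grey), VPA (red) and VPA + Rapamycin (blue). In the upper 2 rows all treated libraries lie above vehicle, in the lowest row all lie below it, and SPAG6 is the gene whose VPA + Rapamycin libraries were called lower than those of VPA.

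With both drugs against vehicle, 53 genes were tested, of which 10 were raised, where 9.81% of all 17383 genes were raised, and 5 were lowered, where 9.22% of all were. That is 18.9% raised and 9.43% lowered, with a median log2 fold change of 0.18. Of the protein-coding genes tested, 11.1% were raised and 9.72% lowered. This comparison shares its vehicle libraries with the one above, so the values of each gene are set side by side without an overlap. Called in it were SPAG6, CFAP44, DNAH7, DNAAF3, RSPH4A, CFAP74, CFAP46, CFAP43, CCNO and CFAP70 as raised, and TEKT2, RFX3, CFAP97, DNAH1 and DNAH2 as lowered. The raised count was 7 without any single VPA + Rapamycin library, and the CFAP43 call was lost in each of these cases and without vehicle replicate 2. The CFAP46 call was lost without VPA + Rapamycin replicate 2 (adjusted p = 0.0508). The lowered count was less steady, being 2 without vehicle replicate 2 and 1, TEKT2, without VPA + Rapamycin replicate 1 or 2, where RFX3, CFAP97, DNAH1 and DNAH2 kept negative log2 fold changes and missed the threshold. With both replicate 3 libraries that stood apart in floor plate markers left out, 9 were raised and 5 lowered.

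Against VPA alone, adding Rapamycin changed few of these genes. Of 53 tested, 1 was raised (1.89%), where 3.01% of all 17317 genes were raised, and 1 lowered (1.89%), where 3.73% of all were lowered. The median log2 fold change of the 53 was 0.04. Among protein-coding genes tested, 3.23% were raised and 4.45% lowered. The lowered gene was SPAG6, described above, which stayed 5.08-fold over vehicle. The raised gene was CFAP70, at 3.53 ± 0.34 CPM with VPA and 6.62 ± 0.93 with both drugs (SD, n = 3), a log2 fold change of 0.91 (SE 0.22, adjusted p = 0.0172). Against vehicle CFAP70 stood at -0.11 with VPA (adjusted p = 0.778) and was raised by 0.79 with both drugs (adjusted p = 0.0438). Its count is uncertain by DNAJC9-AS1 on the opposite strand, which had 54.6% of it and a log2 fold change of 0.33 between the drug groups (adjusted p = 0.562). The CFAP70 call between the drug groups was lost without VPA replicate 1 or 2 or VPA + Rapamycin replicate 3, and the call against vehicle without any single library other than vehicle replicate 3. In a single fit of all 9 libraries the adjusted p was 0.0785 for SPAG6 and 0.0983 for CFAP70, so neither call held there. CFAP44 was next, at log2 0.43 and an adjusted p of 0.0563. DNAH1 and DNAH10, lowered by VPA, stood at log2 0.49 and 0.55 with Rapamycin added, with adjusted p-values of 0.151 and 0.331.

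Some of these genes differed between the libraries of different replicate numbers more than between drugs. CFAP300, a dynein assembly factor, had 52, 10 and 83 counts in vehicle, 67, 3 and 106 in VPA, and 51, 13 and 86 with both drugs, so replicate 2 was the lowest and replicate 3 the highest in each group. The mean over the 3 libraries numbered 2 was 0.534 CPM against 4.45 CPM in the other 6, an 8.34-fold difference. SPAG16, of the central apparatus, had 520, 553 and 342 counts in vehicle, 734, 568 and 332 in VPA, and 613, 606 and 344 with both drugs, with replicate 3 the lowest at 20.6 CPM against 36.3 in the others. RSPH14 was another such gene, higher in the libraries numbered 3 by 1.62-fold. The pattern was noticed in the data and is given without a test. It held for 3 of 53 members with a mean of at least 10 counts, and libraries of 1 replicate number lay all above or all below the other 6 for 1.99% of 17229 genes. Whether a number marks a clone is not given in the labels.

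**Figure D3:**
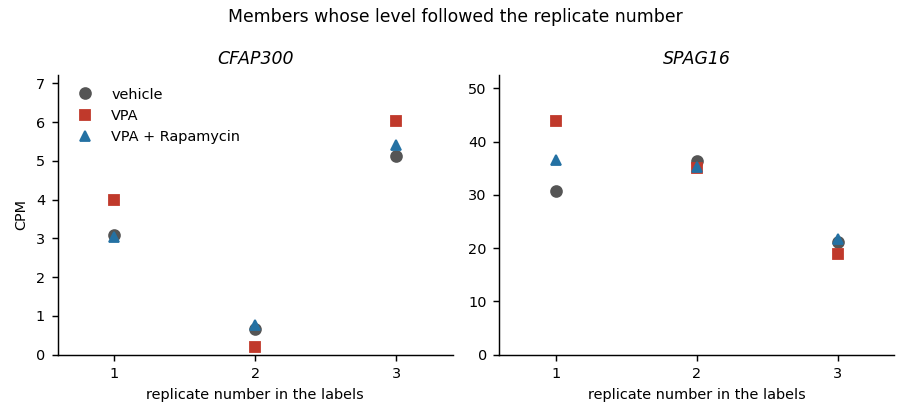
Level of CFAP300 and SPAG16 in CPM by replicate number, for vehicle (grey circles), VPA (red squares) and VPA + Rapamycin (blue triangles), 1 point per library. The libraries numbered 2 are the lowest for CFAP300 in all groups and those numbered 3 are the lowest for SPAG16.

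Other motile cilium genes that the symbol rule does not take changed in shares close to or below those of all genes given above. Of 40 tested, VPA raised 8 (20%, beside 16.4% of all genes) and lowered 5 (12.5%, beside 15.7%), both drugs against vehicle raised 4 (10.3%, beside 9.81%) and lowered 2 (5.13%, beside 9.22%) of 39, and Rapamycin added to VPA raised 1 of 40 (2.5%, beside 3.01%). DNALI1, a light intermediate chain of the inner arm, had 920, 872 and 895 counts in vehicle, 542, 612 and 523 in VPA, and 623, 673 and 592 with both drugs, and fell by 0.76 with VPA (adjusted p = 0.00111). ARMC4, an outer arm docking factor, fell by 1.13 (adjusted p = 0.00500), and CCDC40, which sets the spacing of inner arms and the dynein regulatory complex, fell by 0.76 (adjusted p = 0.00192). AK7, an axonemal adenylate kinase, had 132, 101 and 112 counts in vehicle and 238, 242 and 228 in VPA, and was raised by log2 0.96 (adjusted p = 0.00173). ENKUR, raised by log2 0.64 with Rapamycin added to VPA (adjusted p = 0.00701), had 184, 228 and 211 counts in VPA and 309, 335 and 313 with both drugs. Of 13 multiciliation and centriole amplification genes tested, VPA raised none and lowered 1 (7.69%, beside 15.7% of all genes), FOXN4 (log2 -1.71, adjusted p = 0.00017). There DESeq2 called 2 and an unadjusted p was under 0.05 for 3. Both drugs against vehicle raised none of the 13 and lowered 3 (23.1%, beside 9.22%). Rapamycin added to VPA raised 1 and lowered 1 (7.69% each, beside 3.01% and 3.73%). GMNC, CDC20B and SNTN, genes of multiciliated cells, had at most 8, 8 and 3 counts. DEUP1 had 11, 14 and 6 counts in vehicle, 31, 20 and 15 in VPA, and 20, 15 and 10 with both drugs, and was not called with VPA. Of the 13 multiciliation and centriole amplification genes, 3 had higher and 10 lower estimates with VPA.

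Genes of intraflagellar transport and the BBSome act in primary and motile cilia alike. Of 36 tested, VPA raised 9 (25%, beside 16.4% of all genes) and lowered 6 (16.7%, beside 15.7%), with log2 fold changes from -1.15 to 0.60. The 4 with the smallest p were BBIP1 (log2 -0.68), WDR19 (-0.47), DYNC2H1 (0.50), the heavy chain of the retrograde transport motor, and IFT22 (0.60), with adjusted p-values of 0.00424, 0.0093, 0.00935 and 0.0111. The lowest value was that of BBS1, a BBSome subunit, with 47, 35 and 42 counts in vehicle, 22, 13 and 24 in VPA, and 15, 16 and 17 with both drugs, which fell by 1.15 with VPA (adjusted p = 0.0303) and by 1.41 with both drugs (adjusted p = 0.0168). Both drugs against vehicle raised 9 (25%, beside 9.81%) and lowered 1 (2.78%, beside 9.22%), BBS1. Rapamycin added to VPA raised 3 (8.33%, beside 3.01%), IFT27, WDR19 and BBS10, by log2 0.42, 0.37 and 0.36. Of 10 cytoplasmic dynein genes tested, VPA raised 1 (10%, beside 16.4% of all genes), DYNLL1 (log2 0.47). It lowered 2 (20%, beside 15.7%), DYNC1LI2 and DYNC1LI1 (-0.48 and -0.50).

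Markers of cells that bear motile cilia gave a mixed picture beside these results. The summed level of the choroid plexus markers, of which 5 of 6 had counts, was 6.45 to 7.11 CPM in vehicle, 39.9 to 43.4 with VPA and 27.0 to 32.8 with both drugs. That sum was carried by CLIC6, a chloride channel protein, with 84, 62 and 65 counts in vehicle, 709, 620 and 682 in VPA, and 522, 425 and 427 with both drugs. CLIC6 was the 1 gene raised with VPA of the 3 tested from that list, and the other 2 had lower estimates. KCNE2 averaged 1.1 CPM in vehicle, 0.555 with VPA and 0.36 with both drugs, and AQP1 1.1, 0.798 and 1.44. TTR and OTX2, which define the choroid plexus, had 0 to 6 and 0 to 3 counts. AQP4 and CRYAB of the ependymal list had 0 to 5 counts each. Of the 4 tested from that list, VPA raised 2 (50%, beside 16.4% of all genes), RARRES2 and S100B, and lowered 1 (25%, beside 15.7%). RARRES2 had 86, 75 and 76 counts in vehicle, 195, 221 and 299 in VPA, and 234, 350 and 302 with both drugs. S100B had 1, 5 and 22, then 38, 29 and 49, then 16, 13 and 6. Rapamycin added to VPA raised 1 of the 4 (25%, beside 3.01%) and lowered 1 (25%, beside 3.73%). CD24 and PROM1 carried the sum of that list, which was 587 to 790 CPM in vehicle, 495 to 553 with VPA and 523 to 618 with both drugs. Floor plate markers summed to 261 to 342, 278 to 304 and 311 to 413 CPM, a sum carried by NTN1 and SPON1. SHH averaged 4.36, 1.44 and 4.96 CPM. Rapamycin added to VPA raised 3 of 4 floor plate markers tested (75%, beside 3.01% of all genes), NTN1, SHH and CORIN. DESeq2 called 1 of the 3 that it tested. In VPA + Rapamycin, SHH had 37, 38 and 166 counts and CORIN 11, 18 and 50, both highest in replicate 3. FOXJ1 was no higher in the 2 libraries with high SHH (129 and 125 counts) than in the rest. Sperm markers, of which 3 of 8 had counts, summed to at most 0.756 CPM. Over the same groups the mesenchyme markers summed to 133 to 290 CPM in vehicle, 536 to 688 with VPA and 237 to 362 with both drugs, and neuron markers to 938 to 1574, 778 to 857 and 830 to 879. The mesenchyme sum was carried by COL1A1 and COL1A2, the 2 of 5 tested that VPA raised (40%, beside 16.4% of all genes). PDGFRA averaged 3.26 CPM in vehicle and 1.59 with VPA. PRRX1 had 0, 0 and 53 counts in vehicle and 19, 20 and 2 in VPA, so its vehicle level came from replicate 3. TWIST1 had 0, 1 and 63 counts in vehicle and 45, 18 and 44 in VPA. Of the 5 tested, 3 had higher and 2 had lower estimates with VPA. The part of these shifts in the changes of the cilium genes was not tested.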

How the data were processed

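RNA of 9 SCO libraries, 3 per group, was measured. The authors aligned reads with HISAT2 2.0.5 and counted them per gene with featureCounts 1.5.0-p3, per the submitters' processing notes, and deposited 1 table per pair of groups, each with whole-number read counts (30034, 29566 and 30047 genes, GENCODE coordinates on GRCh38). The deposited counts were used as they stood. Normalized and FPKM columns, group means and columns of the authors' own fold changes and p-values were not used. Whether counting used strand is not given in the sources used here. Counts of members with an overlapping gene above 10% of their count (32 of 72) are therefore uncertain. Some of these are named above without a mark, among them RSPH1, RSPH9, RSPH14, SPAG17, TEKT1 and TEKT4.

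Groups came from the labels. Each pair was fitted on all genes of its table with edgeR 4.0.16 in R 4.3.3 (TMM, default low-count filter, quasi-likelihood test, no covariate), with Benjamini-Hochberg adjustment over all genes tested and a threshold of 0.05. The standard error is the log2 fold change divided by the root of F. CPM used TMM library sizes over all 9 libraries. Alternatives were DESeq2 1.42.0, upper-quartile scaling, no filter, at least 10 counts in every library, a fit of all 9 libraries, a replicate block, a minimum absolute log2 fold change of 1 and leaving out each library. Leaving out both of these groups' replicate 3 libraries (vehicle, VPA + Rapamycin) was added after seeing the data. The main fit was tested on simulated data.

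Named were called members, the 5 regulators, the 6 highest genes per kb in vehicle, genes at 0 in a group with over 10 counts in another, and called genes of some companion lists. Named besides were SPAG16, CFAP300, RSPH14 and single uncalled members per role, chosen after their values were seen. Calls in the roof plate, notochord, spinal cord progenitor, neuron and neural crest lists are not given. A companion gene that is not named may still have been called. The members and lists were chosen with earlier results of these data known.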

Additional observations from a re-analysis of the deposited data

How the results depend on the processing

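The counts of members raised and lowered with VPA stayed within 1.5 times of 12 and 7 under all alternatives, as did the count of 10 raised with both drugs. For Rapamycin added to VPA, the raised count of 1 became 2 without a filter on low counts, 2 with the replicate block, 0 in the fit of all 9 libraries, 0 when a log2 change of 1 or more in size was required, and 0 to 2 leaving out single libraries. The lowered count of 1 became 0 in the fit of all 9 libraries, 0 with that minimum change, and 1 to 2 leaving out libraries. For both drugs against vehicle the lowered count of 5 became 1 with that minimum change and 1 to 7 leaving out libraries. FOXJ1 in that comparison was -0.066, turned to 0.040 without VPA + Rapamycin replicate 1 and ranged from -0.16 to 0.040 leaving out libraries. RFX2 turned from -0.0092 to 0.021 with upper-quartile scaling and 0.0040 with the replicate block, and ranged from -0.14 to 0.11 leaving out libraries. The cause was not tested. Of the values of single genes and companion lists, 242 of VPA against vehicle kept their direction and side of the threshold and 26 lost the call. The corresponding numbers were 71 and 7 for Rapamycin added to VPA, and 192 and 36 for both drugs against vehicle, besides the 7 turned signs of FOXJ1 and RFX2. Pairing of the libraries by replicate number was not seen in every comparison, though single genes such as CFAP300 followed the number. Correlations of same-numbered deviations were 0.022, 0.062 and -0.13 for VPA and vehicle, and -0.058 to 0.089 for the drug groups. For both drugs and vehicle they were 0.074 to 0.26. The same number gave the best correlation in 0, 1 and 2 of 3 cases in these comparisons. With the block, which lost the VPA calls on CFAP46 and DNAH2, 11 and 6 members were raised and lowered with VPA, and 12 and 6 with both drugs. Depth limits genes with few counts, such as MCIDAS in all libraries and CFAP52 in vehicle.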
